A study of Homo sapiens with 4 samples.

Results

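E proteins and ID inhibitors were followed in RNA-seq of HGC-27, an established human gastric cancer cell line. The members were found in the count tables by gene symbol, and the set was proposed with earlier results of these data known. They are the 3 E protein genes TCF3, TCF4 and TCF12 and the 4 ID genes ID1, ID2, ID3 and ID4, which makes 7 of the 25559 gene symbols counted, and 6 of the 7 had enough reads to be tested. The study compared 2 libraries of wild-type HGC-27 (control, genotype wildtype) with 2 libraries of RUNX3 knock-out HGC-27 (RUNX3 KO), for which the labels give 1 shared medium with fetal bovine serum. The knock-out was made with a lentiviral Cas9 and a guide to an exon of RUNX3, puromycin selection and single-cell cloning. How many clones the RUNX3 KO libraries represent, and whether replicates were separate cultures, is not given in the sources used here, so that p-values measure only the spread between these libraries, which may be technical, and an effect of RUNX3 loss and a property of the cloned cells cannot be told apart.

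E proteins are broadly expressed basic helix-loop-helix (bHLH) transcription factors. Their helix-loop-helix domain pairs with that of a partner, often a tissue-restricted bHLH factor such as TWIST1, and the basic regions of the pair then bind the E-box, CANNTG. ID proteins have the helix-loop-helix domain but no basic region, so a pair of an E protein and an ID protein does not bind DNA. ID genes are classical targets of bone morphogenetic protein (BMP) signaling through SMAD factors, and high ID expression is associated with undifferentiated and proliferating cells. The symbols TCF3 and TCF4 invite confusion, since older names for TCF7L1 and TCF7L2, HMG-box factors of Wnt signaling, are the same, and the study gives Tcf7l1 as the other name of its Tcf3 motif.

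Each library held between 11731401 and 12110876 reads assigned to genes. The chi-square per degree of freedom over genes was 1.22 for the control pair and 1.18 for the RUNX3 KO pair, close to the value of counting error alone, against 16.9 to 17.4 across conditions. Levels are CPM, counts scaled to a common library size after TMM normalization in edgeR, with the SD of n = 2 libraries. Fold changes are RUNX3 KO over control on the log2 scale, and adjusted p-values come from the quasi-likelihood test of edgeR with correction over all tested genes by Benjamini and Hochberg. RUNX3 itself went from 351 and 308 counts to 225 and 185 (log2 fold change -0.70, SE 0.0961, adjusted p = 1.43e-09). Without RUNX3 KO replicate 2 its log2 fold change was -0.55. These values are RNA. For protein, the paper reports an immunoblot in which RUNX3 was absent from the knock-out cells. Of 12 gastric epithelial markers, 8 had at most 3 counts in every library, 6 of them (MUC5AC, TFF1, TFF2, CLDN18, KRT19 and KRT20) at 0 throughout, and EPCAM had 1, 1, 0 and 0. KRT18, which was not tested, had 0 and 0 counts in control and 2 and 14 in RUNX3 KO libraries. The 3 that were tested were KRT8, CDH1 and MUC1. KRT8, a keratin gene, rose from 19 and 11 counts to 72 and 81 (log2 fold change 2.33, SE 0.251). CDH1, which encodes E-cadherin and was named after its value was seen, was higher at 30 and 32 counts against 15 and 21 (log2 fold change 0.77, SE 0.293, adjusted p = 0.0238), a call lost in 5 of 13 alternatives (DESeq2, no filter on low counts, and without control replicate 1 or either RUNX3 KO replicate, with an adjusted p of up to 0.273). The mucin gene MUC1 was at -0.14 (SE 0.155, adjusted p = 0.474). Endothelial markers summed to at most 0.508 CPM in any library. Each of the 8 fibroblast markers passed the test with a lower level in RUNX3 KO cells, as did 24.4% of all tested genes. The summed level of these markers moved from 6794 and 6701 CPM to 3875 and 3950 CPM. Vimentin (VIM) and COL1A1 were the most abundant (log2 fold changes -0.75, SE 0.0194, and -0.87, SE 0.0237). Around VIM, 36 of 40 neighbouring genes were lower, with a median of -0.35, which left VIM at -0.40 after subtraction. PDGFRA and PDGFRB fell by 2.33 (SE 0.122) and 1.25 (SE 0.195), and COL1A2 went from 1973 and 2030 counts to 1 and 5. These mesenchymal genes moved with the condition in every comparison that follows, and their part in the results was not tested.

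Of the 6 tested members, 4 had an adjusted p under 0.05, against 48.9% of all 12967 tested genes. TCF3 and TCF12 were higher in RUNX3 KO cells (24.5% of all tested genes were), and ID2 and TCF4 were lower (24.4% of all tested genes were). Control and RUNX3 KO libraries did not overlap in CPM for any of the 6, which also held for 72.7% of tested genes. By the rule stated in the study's methods, at least 2-fold with an unadjusted p of at most 0.05, 0 members were called, against 6.12% of tested genes (2.11% higher and 4.01% lower). In bulk RNA, fewer cells that express a gene and less RNA per cell cannot be told apart.

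**Figure D1:**
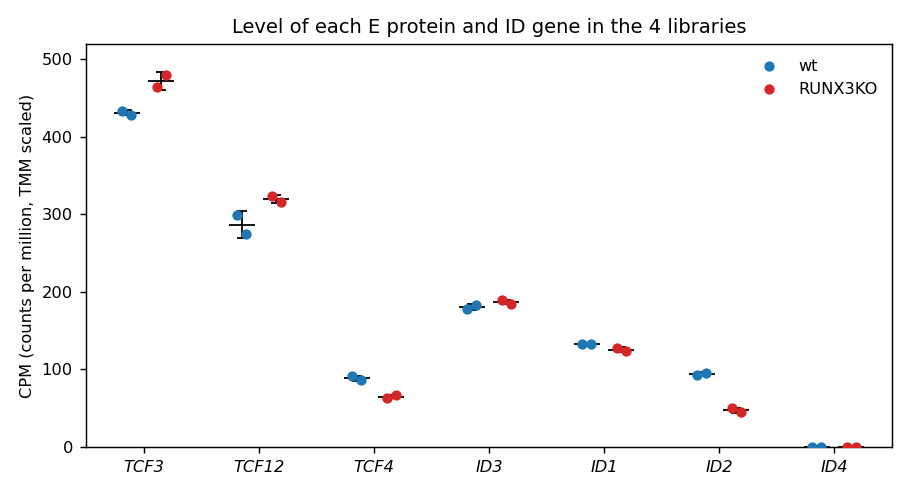
Level of each gene in CPM (linear axis) in the 2 control (blue, wt) and 2 RUNX3 KO (red) libraries, with the mean as a dash and the SD as a bar. ID2 is lower in both RUNX3 KO libraries (49.7 and 44.9 CPM) than in both control libraries (93.3 and 95.8 CPM), TCF4 is lower by less, and ID4 lies at or under the floor of 3 counts.

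ID2 was the member with the largest change. It lies on chromosome 2 from 8818975 to 8824591 (hg19, plus strand). The control libraries had 1101 and 1131 counts and the RUNX3 KO libraries 587 and 540. Both RUNX3 KO libraries were low and close to each other. Its mean level fell from 94.6 ± 1.83 CPM in control to 47.3 ± 3.41 CPM after knock-out (SD, n = 2 each). The fitted log2 fold change was -0.999 (SE 0.0551, 95% interval -1.11 to -0.89, adjusted p = 2.73e-29), just short of the 2-fold limit, which ID2 passed in 6 of 13 alternatives. A change of this size or larger in either direction was found in 796 tested genes, or 6.14% of them.

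ID1 and ID3, the more abundant ID genes, stayed close to their control levels. ID1 (chromosome 20, 30193086 to 30194318, plus strand) had 1574 and 1572 counts in control cells and 1507 and 1487 in RUNX3 KO cells. The difference amounted to -0.085 on the log2 scale (SE 0.0406, 95% interval -0.17 to -0.0039, adjusted p = 0.0765), and it passed 0.05 when libraries were scaled by library size only (adjusted p = 0.0267) or by upper quartile (adjusted p = 0.0262). ID3 (chromosome 1, 23884417 to 23885992, minus strand) had 2102 and 2163 counts in control cells and 2231 and 2220 in RUNX3 KO cells (log2 fold change 0.048, SE 0.0356, 95% interval -0.022 to 0.12, adjusted p = 0.267). The intervals leave room for a fall of ID1 of at most 0.17 and a rise of ID3 of at most 0.12 on the log2 scale. ID4, on chromosome 6, had 0 and 3 counts in control cells and 0 and 3 in RUNX3 KO cells. ID4 therefore stood at or under the floor of 3 counts (0.250 to 0.254 CPM) in every library, and no difference was detectable at this depth.

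The ID genes thus did not change alike. The log2 fold change of ID2 was lower than that of ID3 by 1.05 (difference -1.05, SE 0.0657, 95% interval -1.18 to -0.92), and that of ID1 was above that of ID2 by 0.91 (SE 0.0685, 95% interval 0.78 to 1.05). These standard errors combine those of the single genes, taken as independent. The ratio of ID2 to ID3 counts, which needs no scaling between libraries, was 0.524 and 0.523 in control cells and 0.263 and 0.243 in RUNX3 KO cells. ID1 and ID3 differed less from each other, by -0.13 (SE 0.0540, 95% interval -0.24 to -0.027).

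To show the region before the start of the ID gene that fell beside the ID genes that did not, the 250 bases upstream of the start are printed 5′ to 3′ from RefSeq (GRCh38.p14), with matches to the E-box CANNTG or to the RUNX sites TGTGGT and TGCGGT on either strand in capitals. They cover chr2:8681806-8682055 on the plus strand for ID2, chr20:31605039-31605288 on the plus strand for ID1 and chr1:23559502-23559751 on the minus strand for ID3.
ID2: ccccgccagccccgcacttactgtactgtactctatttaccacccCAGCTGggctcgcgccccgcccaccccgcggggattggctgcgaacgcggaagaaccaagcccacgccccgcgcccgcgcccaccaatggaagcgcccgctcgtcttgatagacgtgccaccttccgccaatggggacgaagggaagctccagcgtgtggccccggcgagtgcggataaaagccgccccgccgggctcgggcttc
ID1: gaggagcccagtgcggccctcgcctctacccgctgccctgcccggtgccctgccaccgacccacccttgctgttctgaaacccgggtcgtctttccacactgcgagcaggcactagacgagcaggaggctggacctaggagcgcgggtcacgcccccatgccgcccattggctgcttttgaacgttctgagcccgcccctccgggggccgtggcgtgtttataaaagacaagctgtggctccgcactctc
ID3: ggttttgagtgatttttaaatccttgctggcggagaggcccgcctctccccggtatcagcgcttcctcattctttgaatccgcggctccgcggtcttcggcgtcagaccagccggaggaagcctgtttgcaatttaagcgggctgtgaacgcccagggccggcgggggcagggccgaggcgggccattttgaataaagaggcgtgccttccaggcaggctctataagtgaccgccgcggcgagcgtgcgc
The single capital stretch, CAGCTG in ID2, is an E-box from base -205 to base -200 relative to the start. ID1 and ID3 held no E-box in this window, and none of the 3 sequences held either RUNX site. An E-box was present in 61.8% of 35116 RefSeq promoter windows of this length and a RUNX site of either form in 16.3%, so the match in ID2 is a common one and is given as a description. Of the 10 windows before annotated starts of TCF4, 5 held an E-box and 0 held a RUNX site. TCF12 had an E-box in 2 of 5 windows, ID4 in 1 of 1 and TCF3 in 0 of 1.

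Among the E proteins, TCF4 was the member that fell. It encodes the E protein also known as ITF2 and lies on chromosome 18 from 52889416 to 53332018 (minus strand). Control replicates counted 1074 and 1012 reads and RUNX3 KO replicates 749 and 801. The groups did not overlap. Mean levels were 88.4 ± 3.69 CPM and 65.0 ± 2.24 CPM (SD, n = 2 each), and the log2 fold change was -0.44 (SE 0.0519, 95% interval -0.54 to -0.34, adjusted p = 5.61e-12). A change of this size or larger was found in 21.2% of tested genes.

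TCF3 and TCF12 (the latter encodes HEB) were slightly higher in RUNX3 KO cells. TCF3 (chromosome 19, 1609290 to 1652614, minus strand) had 5122 and 5062 counts in control cells and 5481 and 5775 in RUNX3 KO cells (log2 fold change 0.13, SE 0.0268, 95% interval 0.078 to 0.18, adjusted p = 2.14e-05). TCF12 (chromosome 15, 57210821 to 57591479, plus strand) had 3537 and 3238 counts in control cells and 3823 and 3805 in RUNX3 KO cells (log2 fold change 0.16, SE 0.0314, 95% interval 0.096 to 0.22, adjusted p = 1.23e-05). These rises were less firm than the falls of ID2 and TCF4. TCF3 lost its call without RUNX3 KO replicate 2 (adjusted p = 0.0632), and TCF12 did so without RUNX3 KO replicate 1 (adjusted p = 0.181) or 2 (adjusted p = 0.131) and with no filter on low counts (adjusted p = 0.0501), whereas ID2 and TCF4 kept theirs in all 13 alternatives, with adjusted p of at most 0.00883 and 0.0252. Leaving out 1 control library moved the log2 fold change of TCF12 to 0.22 (without replicate 1) or 0.093 (without replicate 2).

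The opposite course of TCF4 was visible within libraries. TCF3 had 4.77 and 5.00 times the counts of TCF4 in control cells and 7.32 and 7.21 times in RUNX3 KO cells. TCF4 had a log2 fold change below that of TCF12 by 0.60 (difference -0.60, SE 0.0606, 95% interval -0.72 to -0.48), while TCF3 and TCF12 differed by -0.027 (SE 0.0413, 95% interval -0.11 to 0.054). Isoforms of TCF4 and TCF3 that start at different promoters or differ in 1 exon are summed in these counts.

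**Figure D2:**
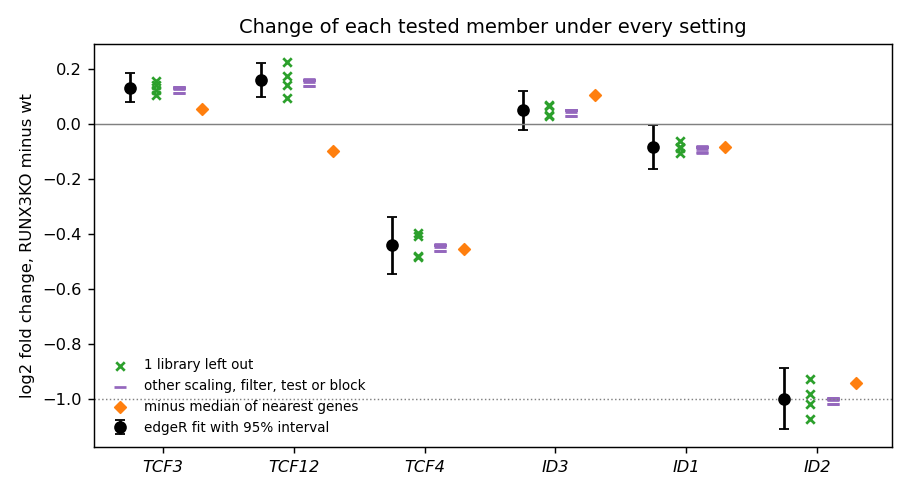
Log2 fold change (RUNX3 KO minus control) of each tested member with its 95% interval (black), with 1 library left out (green), under other scalings, filters, tests or a block (purple) and after subtracting the median of the nearest tested genes (orange). The dotted line marks a 2-fold fall. ID2 stays between -1.07 and -0.93 and TCF4 between -0.49 and -0.40, whereas TCF12 turns from 0.16 to -0.10 once its neighbours are subtracted.

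The change of each member was set beside that of the tested genes nearest to it on the chromosome. Tested genes whose symbol had no match in the annotation used for positions were left out. TCF12 lies in a region of raised RNA. Among the 40 tested genes closest to it the median was 0.26, 31 were above 0, and 27 rose at least as much as TCF12. After subtraction of that median TCF12 was at -0.10. Around TCF3, 29 of 40 genes were above 0, with a median of 0.077, and 15 rose at least as much. The 40 genes around TCF4 had a median of 0.012, 19 were below 0, and 4 fell at least as much. The 31 genes around ID2, which lies near a chromosome end, had a median of -0.056, 20 were below 0, and 2 fell at least as much. After subtraction TCF4 was at -0.45 and ID2 at -0.94. The part of these regions in the values of the members was not tested.

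**Figure D3:**
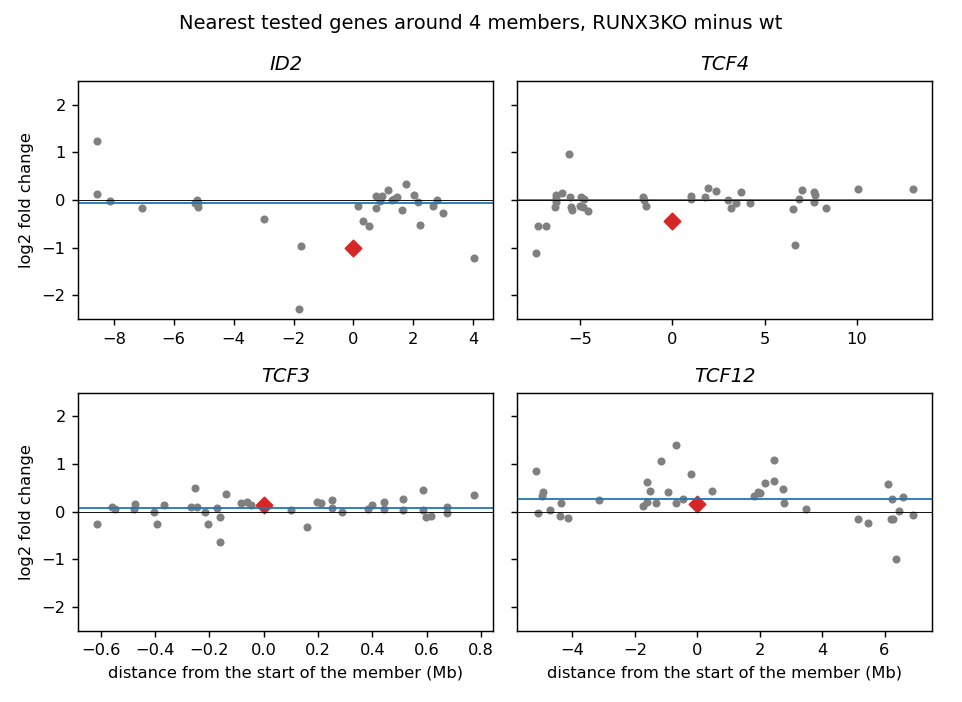
Log2 fold change (RUNX3 KO minus control) of the nearest tested genes (grey) against their distance in Mb from the start of ID2, TCF4, TCF3 and TCF12 (red diamonds), with the median of the neighbours in blue. Of the 40 neighbours of TCF12, 31 lie above 0 and 9 below, with a median of 0.26, and ID2 and TCF4 lie below most of theirs.

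To compare levels between genes, CPM was divided by the union of exon lengths to give RPKM. In control cells ID3 was highest at 121 ± 2.48 RPKM, followed by ID1 at 108 ± 0.0654, TCF3 at 67.7 ± 0.544, ID2 at 42.7 ± 0.825, TCF12 at 30.4 ± 1.89, TCF4 at 3.03 ± 0.127 and ID4 at 0.0328 ± 0.0464 (SD, n = 2). Each neighbouring pair in this order was further apart than its SDs. In RUNX3 KO cells ID2, at 21.4 ± 1.54 RPKM, had dropped below TCF12, at 33.9 ± 0.554 RPKM. The order rests on the length chosen. With the longest transcript, TCF12 (46.9 ± 2.92) and ID2 (46.3 ± 0.894) did not differ beyond their spread in control cells, and TCF4, whose annotated exons add up to far more than any of its transcripts, rose to 10.6 RPKM but stayed below the other E proteins. With coding lengths ID2 (235 ± 4.54) stood above TCF3 (212 ± 1.70) in control cells and came to lie below both TCF3 and TCF12 in RUNX3 KO cells.

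Summed over genes and per length, ID RNA exceeded E protein RNA in every library. Without division by length the order was the other way, with E protein sums of 824 and 789 CPM in control and 852 and 864 CPM in RUNX3 KO libraries, and ID sums of 405 and 413 CPM and of 366 and 354 CPM. The ID sum was 269 and 274 RPKM in control cells and 252 and 244 RPKM in RUNX3 KO cells, and the E protein sum was 103 and 99.3 against 109 and 111 RPKM. The ratio of ID to E protein RNA per length was thus 2.62 and 2.76 in control cells and 2.31 and 2.19 in RUNX3 KO cells, lower in both RUNX3 KO libraries. With longest transcripts the mean ratio was 2.32 and 2.01, and with coding lengths 2.67 and 2.22. These sums and shares are given as a description, with no test. An exact two-sided permutation test of 2 against 2 libraries cannot give a p below 0.333. ID2 supplied 15.6% and 15.8% of the ID sum in control cells and 8.90% and 8.31% in RUNX3 KO cells, while the share of ID3 went from 44.2% and 44.7% to 50.1% and 50.6%. TCF4 supplied 3.03% and 2.96% of the E protein sum in control cells and 1.99% and 2.05% in RUNX3 KO cells. This share depends on the length used, with means of 7.12% and 4.87% by longest transcript and 9.89% and 6.82% by coding length, and was lower in RUNX3 KO cells with each.

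**Figure D4:**
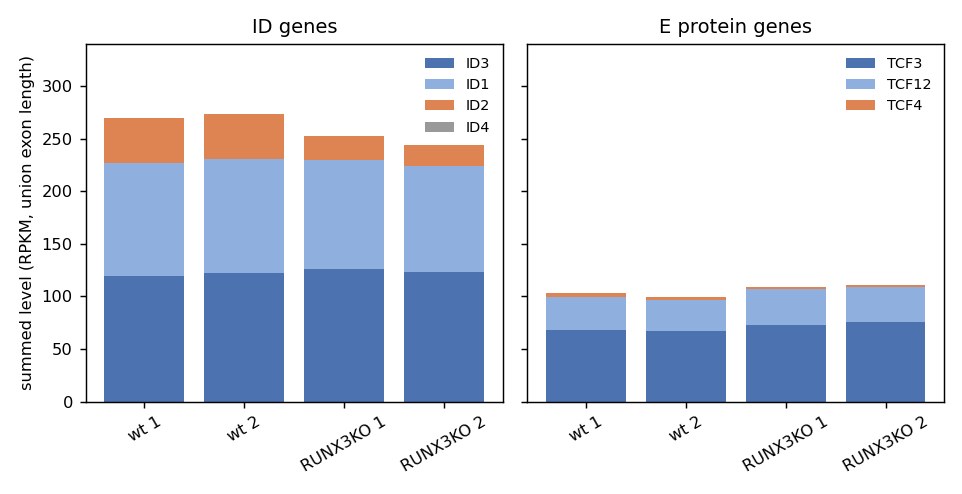
Stacked level in RPKM (union exon length) of the ID genes (left) and the E protein genes (right) in each library, on a common axis. The ID stacks reach 269 and 274 RPKM in control and 252 and 244 RPKM in RUNX3 KO libraries, and the ID2 segment shrinks most.

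Partners of E proteins were sought next. Of 35 class II bHLH genes listed, 34 were in the files, and 25 of these had at most 3 counts in every library, among them MYOD1, HAND1, TCF21 and ASCL2, which drive muscle, heart, mesenchymal and intestinal programs. Only TWIST1, ATOH8 and OLIG2 had enough reads for the test, and each of them fell, as did 24.4% of all tested genes. TWIST1, a factor of mesenchyme, was the most abundant, with 1371 and 1327 counts in control cells and 1016 and 1059 in RUNX3 KO cells (log2 fold change -0.39, SE 0.0455, adjusted p = 3.59e-12). ATOH8 went from 343 and 340 to 205 and 243 counts (log2 fold change -0.62, SE 0.0910). OLIG2, known from the oligodendrocyte lineage, went from 94 and 88 to 36 and 39 counts (log2 fold change -1.29, SE 0.191). All 3 kept their calls in each of 13 alternatives.

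Helix-loop-helix repressors of the HES, HEY and BHLHE groups, which act on N-boxes and E-boxes, had 3 lower, 2 higher and 5 not passing of 10 tested, near the 24.4% lower and 24.5% higher of all tested genes, and a median of -0.17, against -0.0021 over all tested genes. HEY1, a Notch and BMP target, fell from 224 and 228 to 80 and 94 counts (log2 fold change -1.39, SE 0.124, adjusted p = 4.19e-17). BHLHE40 fell from 290 and 267 to 129 and 140 counts (log2 fold change -1.06, SE 0.107), whereas HES6 was higher by 0.42 (SE 0.0836). HES6 and the other higher gene, HEYL (0.77, SE 0.182), lost their calls without RUNX3 KO replicate 1. HES7, the remaining lower gene, was at -0.45 (SE 0.159) and kept its call in 8 of 13 alternatives. HEYL and HES7 were named after their values were seen.

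The BMP pathway, which acts upstream of ID genes, was examined in 3 lists. Of 10 tested ligands and receptors 3 were lower and 2 higher (median -0.16), of 4 SMAD transducers 2 were lower (median -0.089), and of 7 tested antagonists 4 were lower and 1 higher (median -0.34). Over all tested genes 24.4% were lower and 24.5% higher, and the ligands and receptors lay near these shares. The ligands BMP7 and BMP4, the latter named after its value was seen, changed in opposite directions. BMP7 fell from 1005 and 995 to 676 and 650 counts (log2 fold change -0.61, SE 0.0538), and BMP4 rose from 585 and 634 to 939 and 938 counts (log2 fold change 0.61, SE 0.0561), while 37 of its 40 nearest genes were lower. The receptor BMPR2 fell by 0.48 (SE 0.0511). The receptor BMPR1B, named after its value was seen, was higher by 0.50 (SE 0.153) and kept its call in 8 of 13 alternatives. SMAD5, which carries the BMP signal, was lower by 0.20 (SE 0.0453), and SMAD9, named after its value was seen, by 0.30 (SE 0.0645). Both SMAD5 and SMAD9 lost their calls when either RUNX3 KO library was left out. SMAD4, the common partner, was at 0.019 (SE 0.0499, adjusted p = 0.779). Of the antagonists, the pseudoreceptor BAMBI fell by 0.46 (SE 0.0699), and SMURF1, a ubiquitin ligase for SMADs, was at 0.092 (SE 0.0595, adjusted p = 0.197). NOG, a secreted BMP antagonist named after its value was seen, fell from 187 and 176 to 88 and 107 counts (log2 fold change -0.91, SE 0.128).

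Of 10 tested cofactors of E proteins, 4 were lower and 2 higher (median -0.16), against 24.4% lower and 24.5% higher of all tested genes. The corepressor genes CBFA2T2 and CBFA2T3, whose products bind an activation domain of E proteins, moved apart. CBFA2T3 rose from 48 and 43 to 92 and 110 counts (log2 fold change 1.13, SE 0.179), and CBFA2T2, named after its value was seen, fell from 585 and 570 to 311 and 325 counts (log2 fold change -0.87, SE 0.0734). LMO2, a bridging protein of bHLH complexes, went from 40 and 27 to 17 and 15 counts (log2 fold change -1.07, SE 0.299), a call lost with DESeq2 and without any of 3 libraries (control replicate 1 and either RUNX3 KO replicate). LDB1, its partner, was higher by 0.23 (SE 0.0336). The coactivator CREBBP was at -0.062 (SE 0.0386, adjusted p = 0.180), and its relative EP300, named after its value was seen, was lower by 0.57 (SE 0.0388), in a region where the 40 nearest genes had a median of -0.53, which left EP300 at -0.038. Of the genes for ID protein turnover, USP1, the deubiquitinase that stabilises ID proteins, was at -0.094 (SE 0.0356, adjusted p = 0.0228, not called in 5 of 13 alternatives), and FZR1, an activator of the ubiquitin ligase that degrades them, was at 0.11 (SE 0.0570, adjusted p = 0.103).

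Among 13 genes known as targets of E proteins, 6 were tested, of which 3 were higher and 2 lower, against 24.5% and 24.4% of all tested genes, with a median of 0.0011. Of the 3 higher genes, CDH1 and CDKN2B, a cell cycle inhibitor gene beside CDKN2A that was named after its value was seen (82 and 55 against 113 and 99 counts, log2 fold change 0.62, SE 0.164, adjusted p = 0.00102, and 0.35 to 0.93 over the alternatives), each lost the call in 5 of 13 alternatives, which for CDKN2B were DESeq2, no filter on low counts, and the omission of control replicate 2 or either RUNX3 KO replicate (adjusted p up to 0.246). The 40 genes nearest to CDKN2B had a median of 0.72, 32 were above 0 and 22 rose at least as much, and CDKN2B was at -0.11 after subtraction of that median. CDKN2A, a cell cycle inhibitor, rose from 745 and 776 to 1514 and 1560 counts (log2 fold change 1.00, SE 0.0474, adjusted p = 7.36e-34), in a region where 33 of the 40 nearest genes were higher with a median of 0.70, which left CDKN2A at 0.30. CDKN1A, another inhibitor of the cell cycle, fell from 138 and 132 to 88 and 90 counts (log2 fold change -0.61, SE 0.140). EBF1, a B-lineage factor, fell from 130 and 130 to 41 and 54 counts (log2 fold change -1.46, SE 0.166). GFI1, named after its value was seen, had 22 and 22 against 15 and 11 counts (log2 fold change -0.77, SE 0.342, adjusted p = 0.0557). RAG1, RAG2, PAX5, IGLL1, VPREB1 and PTCRA, other targets known from lymphoid cells, had at most 2 counts in any library.

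The HMG-box factors that share older names with E proteins had other values. TCF7L1, the Tcf3 of the Wnt pathway, had 0, 0, 0 and 1 counts, at the floor in all 4 libraries, while the E protein gene TCF3 had at least 5062 in each. TCF7L2, named after its value was seen, fell by 0.58 on the log2 scale (SE 0.136), a call lost without RUNX3 KO replicate 2, TCF7 was at -0.077 (SE 0.0518, adjusted p = 0.219) and LEF1 fell by 0.27 (SE 0.0552).

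The genes most like ID2 and TCF4 over the 4 libraries were taken as those with the smallest Euclidean distance between log2 CPM values centred on each gene's mean, among 10868 other genes with a mean of at least 50 counts. For ID2 these were SOX4 (distance 0.0333), GDPD5 (0.0339) and GPRC5B (0.0405), with log2 fold changes of -0.98, -0.98 and -1.05. For TCF4 they were MIR5047 (0.00682), KCNJ14 (0.0144) and CHD3 (0.0157), with log2 fold changes of -0.45, -0.44 and -0.44. With 4 libraries in 2 groups, such a distance mostly compares the size of the change between conditions.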

How the data were processed

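RNA-seq was carried out on poly(A) RNA of HGC-27, in 2 wild-type and 2 RUNX3 KO libraries. The labels give MEM, TRIzol and a stranded kit, and the paper RPMI medium and column-purified RNA. The authors deposited raw counts of reads per gene symbol, aligned to hg19. The paper names STAR, featureCounts and GENCODE, whereas the submitters' processing notes name HISAT2 2.1.0 and HTSeq, and 5 closing rows have the form of HTSeq. These rows, for reads without a gene, took 25.9% to 28.1% of counts and were left out. The strand setting is not given in the sources used here. Exons of ID2 share 145 bases with ID2-AS1, and those of TCF4 share 65 with TCF4-AS2 and 195 with a pseudogene, all on the opposite strand. None of these overlapping genes is among the counted symbols. Whether their reads were added to ID2 or TCF4 cannot be told without the strand setting. ID2B, a processed copy of ID2, was counted, with 3 to 7 counts, so reads of ID2 could be split with it.

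Counts of 25559 symbols entered edgeR 4.0.16 (R 4.3.3): filterByExpr (minimum 10 counts, total 15), which left 12967 genes, TMM, and the quasi-likelihood test of RUNX3 KO against control without a block, with Benjamini-Hochberg adjustment over all tested genes. SE was derived from the F statistic (absolute change over root F). On simulated counts, 93 of 100 genes changed 2-fold were recovered among 12810, with 6 false calls. The simulation set the same dispersion for every gene and changed few genes, whereas 48.9% of tested genes were called in the data. It therefore shows that the fit runs as meant, and does not measure recovery in these data. Lengths and hg19 positions came from a GENCODE annotation lifted to GRCh37. RPKM uses these gene models, which may differ from those counted. Neighbours are the 20 nearest tested genes on each side, or fewer near a chromosome end. Only genes whose symbol matched this annotation could serve, which held for 19365 of the 25559 symbols. Tested genes under other symbols are thus missing among the neighbours. Same-numbered replicates did not deviate together (r = -0.00366 over 10869 genes). Alternatives were other scalings, filters and tests (DESeq2 1.42.0, limma 3.58.1), a replicate block, and each library left out. Members and lists were chosen with earlier results of these data known. From each list, genes past 2-fold with an adjusted p under 0.05 and up to 2 of the highest CPM were to be named, others where stated. With 11731401 to 12110876 counts per library, genes with few counts are imprecise, and floors cover counting error only. The result of 1 marker list is not reported here.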

Additional observations from a re-analysis of the deposited data

How the results depend on the processing

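ID2 and TCF4 kept their direction and call in all 13 alternatives of scaling, filter, test, block and left-out library. With each library left out in turn, log2 fold changes ranged from -1.07 to -0.93 for ID2, -0.49 to -0.40 for TCF4, 0.10 to 0.16 for TCF3, 0.093 to 0.22 for TCF12, -0.11 to -0.064 for ID1, 0.028 to 0.067 for ID3 and -0.86 to -0.55 for RUNX3. Without a filter on low counts TCF12 was at 0.16 (adjusted p = 0.0501), leaving 1 member higher. ID1 passed 0.05 at -0.10 with library size only and at -0.11 with upper-quartile scaling. Subtracting the neighbourhood median, a value with no test, gave 0.054 for TCF3, -0.10 for TCF12 (reversed), -0.94 for ID2 and 0.10 for ID3. The number of members higher ranged from 0 to 2 with 1 library left out. By fold of at least 2 the number of members lower was 1 (ID2) with library size only, upper-quartile scaling, limma-voom or 10 counts required in every library, and 0 to 1 with 1 library left out. Over all tested genes, 3183 were higher and 3158 lower by adjusted p. DESeq2 gave 1829 and 1863, and leaving out 1 library 1488 to 2730 and 1626 to 2806, lowest without RUNX3 KO replicate 2 (1589 and 1667 without replicate 1), where the lone RUNX3 KO library is assumed to vary like the control libraries. By fold, 274 were higher and 520 lower, and 160 and 298 with 10 counts required in every library. The ID share of the summed ID and E protein level was 72.9% in control and 69.2% in RUNX3 KO cells, and 69.9% and 66.8% with the longest transcript. The cause of these shifts was not tested. Replicate numbers are only names here. With them as a replicate block, 3143 genes were higher and 3143 lower, ID2 was at -0.999, and no member's call changed.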
